A study of Mus musculus with 32 samples.

Results

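Sox7, Sox17, Sox18, Erg, Fli1, Ets1, Gata2, Klf2, Klf4 and Tal1 are DNA-binding proteins known as transcription factors of the vascular endothelium. They were taken by gene symbol from a table of 22850 mouse genes, and all 10 were found. The table holds RNA-sequencing scores, which are the authors' normalised values per gene as whole numbers from 1 upwards, for 32 samples of islet cells. The study asked how islet cells change while β cells are lost and recover in a mouse in which β cells can be made to release vascular endothelial growth factor-A (VEGF-A).

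All groups came from adult male C57BL/6 mice that carried MIP-GFP, RIP-rtTA and TetO-VEGF-A. RIP-rtTA places a Dox-dependent activator under a rat insulin promoter, so that β cells make human VEGF-A while doxycycline (Dox) is given in the drinking water, and MIP-GFP labels β cells through a mouse insulin promoter. The No Dox mice carried the same 3 transgenes without Dox. The 1wk Dox mice received Dox for 1 week, and the 1wk WD mice were studied 1 week after Dox withdrawal. GFP+ β cells without CD31 and CD11b, CD31+ endothelial cells (ECs) and CD11b+ macrophages (MΦs) were sorted, and islets of several mice were pooled for each sample. In time order, the samples numbered 4, 5 and 3 for β cells, 4, 1 and 5 for ECs, and 4, 2 and 4 for MΦs. In such sorted samples, fewer cells of a type and less RNA per cell cannot be told apart.

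The sorted types carried their own markers. Summed scores of 9 endothelial markers ran from 334625 to 511240 in EC samples, from 1236 to 45421 in β cell samples and from 1289 to 3519 in MΦ samples. β cell samples varied more than the others. The mean correlation of a sample with its own group was 0.802 to 0.929 in β cells, 0.963 to 0.983 in ECs and 0.914 to 0.978 in MΦs. Summed scores of 9 pericyte and stromal markers were 922 and 1056 in No Dox β cell samples 1 and 2, and 22963 to 508889 in the other 10 β cell samples. Summed scores of 7 acinar markers reached 11322014 and 8469350 in No Dox β cell samples 3 and 4, against 205 to 661840 in the other 10. In No Dox MΦ samples 2 and 4 they reached 10643405 and 1781894, against 1020 to 189997 in the other MΦ samples.

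As background, the SoxF proteins Sox7, Sox17 and Sox18 act in arterial and lymphatic differentiation and in the upkeep of vessels. Erg, Fli1 and Ets1 belong to the ETS family, which binds GGAA core motifs found at most endothelial enhancers, and Fli1 and Ets1 also work in blood cells. Gata2 and the basic helix-loop-helix factor Tal1 act together with Lmo2 in blood and endothelial cells. Klf2 and Klf4 are zinc finger proteins that respond to blood flow in ECs and are also made by myeloid cells.

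RefSeq promoters (GRCm38.p6; 250 bases before to 50 after a start site) were held for 5 members, with 3 promoters of Erg, 2 of Gata2, 2 of Tal1, 1 of Klf2 and 1 of Klf4. Sox7, Sox17, Sox18, Fli1 and Ets1 had no entry. The letters AGATAA, which GATA factors bind, were searched on both strands and stood in 1 promoter of Erg and 1 of Tal1. Of all 32851 promoters, 11.2% held them. TAAATTTA, the core letters of a MEF2 motif, stood in the Klf2 promoter and in another Erg promoter, against 0.545% of all promoters. CGGAA, an ETS motif, stood in 4 of the 9 promoters (29.9% of all promoters held it), and CAGATG, a Tal1 E-box, stood in 1 promoter of Tal1 (17.2%). The 3 promoters below are shown as examples, 2 with AGATAA and 1 with TAAATTTA. These motifs do not sort the members by cell type, since Erg, Tal1 and Klf2 all scored highest in ECs and TAAATTTA also stood in an Erg promoter. Capitals mark AGATAA on the opposite strand in Erg and Tal1, and TAAATTTA in Klf2. A match describes the letters of the window and is not a site of binding.
Erg, chr16:95459299-95459598, minus strand: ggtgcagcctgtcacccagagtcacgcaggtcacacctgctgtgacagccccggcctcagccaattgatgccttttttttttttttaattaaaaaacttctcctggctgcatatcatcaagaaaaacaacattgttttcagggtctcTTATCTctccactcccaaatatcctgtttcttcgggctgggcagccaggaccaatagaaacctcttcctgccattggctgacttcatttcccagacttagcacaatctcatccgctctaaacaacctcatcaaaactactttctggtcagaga
Tal1, chr4:115056176-115056475, plus strand: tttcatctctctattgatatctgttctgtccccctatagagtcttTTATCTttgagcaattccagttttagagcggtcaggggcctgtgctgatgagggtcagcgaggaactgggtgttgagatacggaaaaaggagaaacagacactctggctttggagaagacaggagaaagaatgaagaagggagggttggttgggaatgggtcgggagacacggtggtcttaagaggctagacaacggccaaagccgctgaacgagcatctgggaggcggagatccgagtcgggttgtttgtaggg
Klf2, chr8:72318812-72319111, plus strand: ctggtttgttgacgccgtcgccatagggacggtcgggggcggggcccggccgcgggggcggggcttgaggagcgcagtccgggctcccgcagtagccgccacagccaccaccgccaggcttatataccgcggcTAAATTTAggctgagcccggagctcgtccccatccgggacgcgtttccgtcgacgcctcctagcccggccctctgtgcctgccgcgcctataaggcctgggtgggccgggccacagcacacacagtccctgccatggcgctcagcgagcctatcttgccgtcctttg

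At No Dox, all 10 factors were higher in ECs than in β cells, and 7 of them were higher in ECs than in MΦs. A gene was called at a fold change of at least 2 and a Benjamini-Hochberg adjusted p under 0.05 over all genes tested, with limma on log2(score + 1). Of all 16380 genes tested, 16.5% were called higher and 21.2% lower in ECs than in β cells, and 15.9% higher and 17.6% lower in ECs than in MΦs. For all 10 factors every EC sample lay above every β cell sample, as did 24.8% of genes. Of the 10, 9 had every EC sample above every MΦ sample (26.1% of genes), and Fli1 had every EC sample below every MΦ sample (26.9% of genes). The median difference of the 10 factors was 7.42 on the log2 scale between ECs and β cells and 7.07 between ECs and MΦs, beside -0.07 and -0.01 for all genes.

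**Figure D1:**
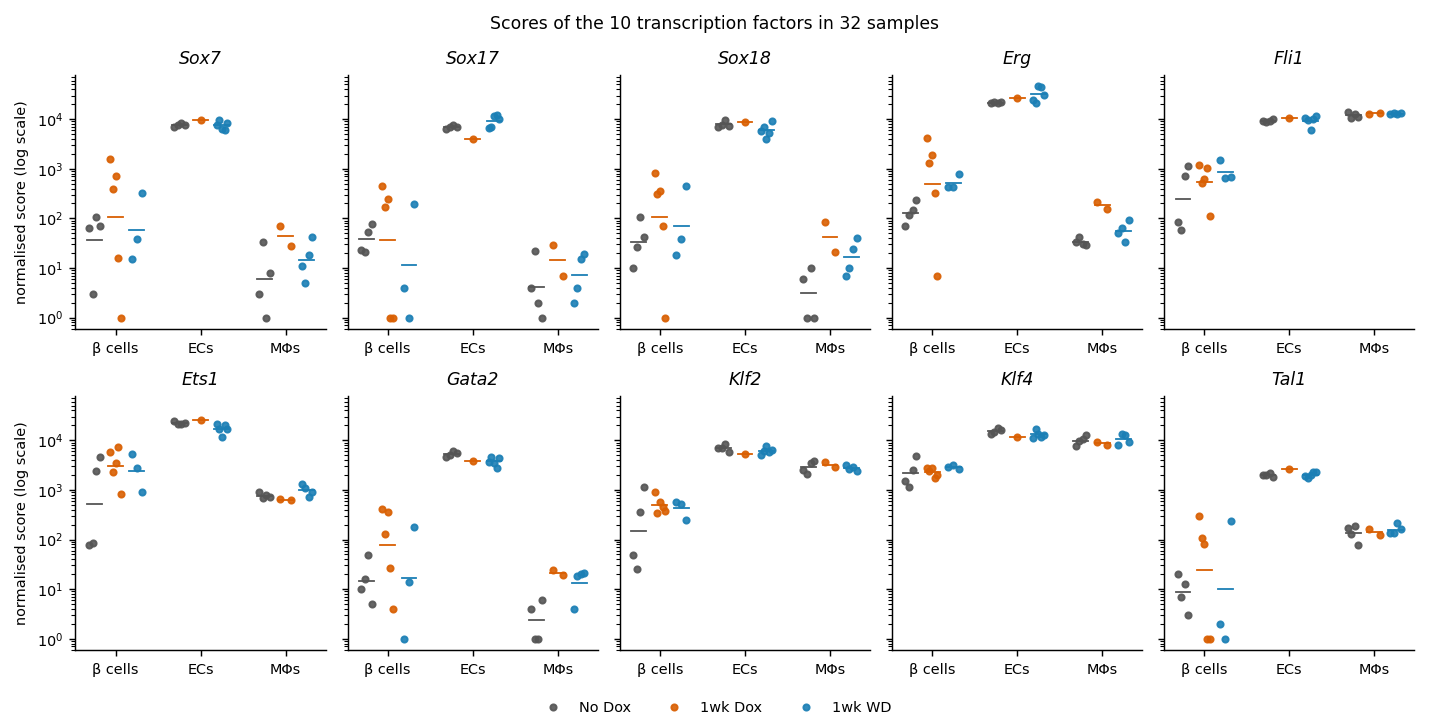
Score of each factor in every sample (log scale), grouped by cell type and coloured by time point, with a bar at the geometric mean of each group. The EC bars sit highest for 9 of the factors, the MΦ bars for Fli1, and the β cell samples spread most.

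Sox7 (chr14:64562511-64569569, mm9, plus strand) scored 6976, 7575, 8405 and 7570 in No Dox ECs. It scored 64, 3, 105 and 72 in No Dox β cells and 3, 33, 1 and 8 in No Dox MΦs. Every EC sample was far above the highest of the other samples, and MΦ scores lay near the lowest score the table can hold. The log2 difference was 7.66 ± 1.04 (SE) against β cells and 10.08 ± 1.04 against MΦs (adjusted p = 8.8e-05 and 8.67e-06). Sox17 (chr1:4481009-4486494, minus strand), a factor of arterial ECs, scored 6250, 7095, 7468 and 6911 in No Dox ECs, 21 to 77 in β cells and 1 to 22 in MΦs. Its log2 difference was 7.48 ± 0.70 against β cells and 10.40 ± 0.70 against MΦs (adjusted p = 5.58e-06 and 2.43e-07). Sox18 (chr2:181404541-181406345, minus strand), known from lymphatic and blood vessel development, scored 7024, 7693, 9777 and 7409 in No Dox ECs, 10 to 105 in β cells and 1 to 10 in MΦs. The 3 SoxF genes thus had the same pattern, with no overlap between ECs and either other cell type.

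Erg (chr16:95580776-95808200, minus strand), an ETS factor that keeps ECs in their differentiated state, scored 20886, 22530, 20825 and 22428 in No Dox ECs. It scored 69, 117, 149 and 238 in No Dox β cells and 33, 43, 31 and 29 in No Dox MΦs. These were the smallest errors among the 10 factors, with log2 differences of 7.37 ± 0.32 against β cells and 9.29 ± 0.32 against MΦs (adjusted p = 2.39e-08 and 1.63e-09). Fli1 and Ets1 are neighbours on chromosome 9, 94.8 kb apart (Fli1 at chr9:32229793-32348974, minus strand; Ets1 at chr9:32443806-32565405, plus strand), and they differed in MΦs. Fli1 scored 9360, 8807, 8989 and 10288 in No Dox ECs and 13743, 10774, 12960 and 11234 in No Dox MΦs. MΦ samples were the higher ones without overlap, but the difference of -0.37 ± 0.78 did not pass (adjusted p = 0.742). In a fit of ECs and MΦs alone its adjusted p was 0.0167 at an unchanged log2 difference, which is below 2-fold. Ets1 scored 24183, 21125, 20915 and 22548 in No Dox ECs and 923, 675, 773 and 711 in No Dox MΦs, a log2 difference of 4.85 ± 1.13 (adjusted p = 0.00396).

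Gata2 (chr6:88143885-88157024, plus strand) scored 4513, 4947, 6211 and 5527 in No Dox ECs, 10, 16, 48 and 5 in β cells and 4, 1, 1 and 6 in MΦs. It had the largest log2 difference from β cells of the 10 factors, 8.42 ± 0.65, and one of 10.58 ± 0.65 from MΦs (adjusted p = 1.47e-06 and 1.17e-07). Tal1 (chr4:114729031-114744360, plus strand), also a blood stem cell factor, scored 1999, 2007, 2146 and 1784 in ECs, 20, 7, 13 and 3 in β cells, and 172, 131, 185 and 76 in MΦs. MΦs held an intermediate level of Tal1 that overlapped with neither other type. Tal1 was higher in ECs than in MΦs by 3.88 ± 0.50 and higher in MΦs than in β cells by 3.77 ± 0.50 on the log2 scale (adjusted p = 4.99e-05 and 5.99e-05). The log2 differences of the low-scoring members depend on the pseudocount. With 20 in place of 1, Sox18, Gata2 and Sox7 differed between ECs and MΦs by 8.36, 7.85 and 8.04, and no call between ECs and another cell type was lost.

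Klf2 and Klf4 were shared between ECs and MΦs. Klf2 (chr8:74842932-74845555, plus strand) scored 6890, 6988, 8382 and 5885 in No Dox ECs, 2466, 2110, 3496 and 3893 in MΦs, and 48, 26, 353 and 1150 in β cells. Klf4 (chr4:55540013-55545347, minus strand), also a pluripotency factor, scored 13252, 14908, 17582 and 16156 in ECs, 7563, 9457, 10402 and 12644 in MΦs, and 1530, 1158, 2525 and 4856 in β cells. Both ran from ECs down to MΦs and β cells, but only the distance to β cells passed. ECs were above β cells by 5.52 ± 0.92 for Klf2 and 2.83 ± 0.36 for Klf4 (adjusted p = 0.000422 and 5.51e-05). The differences between ECs and MΦs were 1.27 ± 0.92 and 0.64 ± 0.36 (adjusted p = 0.303 and 0.177). Klf2 passed in a fit of ECs and MΦs alone (adjusted p = 0.00043), in which the spread of the β cell samples takes no part.

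MΦs and β cells also differed at No Dox. Fli1, Klf2, Klf4 and Tal1 were higher in MΦs, and Sox17, Sox18, Erg and Gata2 were higher in β cells (19.7% of genes were higher in MΦs and 23.5% lower). The Gata2 call was lost with a pseudocount of 20 (from -2.15 to -0.68, adjusted p = 0.0816) and under quantile normalization (-1.45, adjusted p = 0.127). Gata2 had a mean score under 20 in both of these cell types and entered the fit through ECs alone. Fli1 was higher in MΦs by 5.58 ± 0.78, Klf2 by 4.25 ± 0.92 and Klf4 by 2.19 ± 0.36 on the log2 scale (adjusted p = 9.42e-05, 0.00212 and 0.000314). The 4 factors higher in β cells scored 238 or less there, and 1 to 43 in MΦs, so these β cell samples reached at most 1.32% of the mean EC level. Of the 9 endothelial markers, 5 were lower and 1 higher in MΦs than in β cells (median -1.54, with sums of 1289 to 1823 and 1399 to 6484), and their part in these values was not tested. Sox7 and Ets1 did not pass, at -2.42 ± 1.04 and 0.55 ± 1.13 (adjusted p = 0.067 and 0.7). Sox7 was called lower in MΦs with a pseudocount of 20 (adjusted p = 0.045), without β cell sample 2 (-3.50) and without MΦ sample 2 (-3.18). Ets1 scored 76, 86, 2396 and 4674 in the 4 No Dox β cell samples, and without samples 3 and 4, the 2 highest, MΦs stood above β cells by 3.23 on the log2 scale.

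At 1wk WD the order of the cell types was close to that at No Dox. All 10 factors were higher in ECs than in β cells (14.8% of genes were higher, 25.2% lower), by 2.18 (Klf4) to 9.53 (Sox17) on the log2 scale, and 8 of 10 were higher in ECs than in MΦs (19.6% higher, 20.8% lower). The Sox17 difference had an SE of 1.14, with β cell scores of 4, 1 and 193. Klf2 joined the 7 factors called at No Dox, with a log2 difference of 1.16 ± 0.22 from MΦs (adjusted p = 0.000496). Fli1 and Klf4 did not pass against MΦs, at -0.46 ± 0.24 and 0.30 ± 0.17 (adjusted p = 0.123 and 0.156). Between MΦs and β cells, Fli1, Klf2, Klf4 and Tal1 were again higher in MΦs, and Erg and Ets1 were lower (19.2% of genes were higher, 27% lower). In the same comparison 5 of 9 endothelial markers (median -2.41) and 9 of 9 pericyte and stromal markers (median -4.64) were lower in MΦs, and their part in the result was not tested. Leaving out 1wk WD β cell sample 1 or 2 ended the calls of Tal1 and Ets1 in that comparison, with Ets1 at -0.70 without sample 1, and leaving out MΦ sample 3 or 4 ended that of Ets1. Both calls were also lost in a fit of only the groups compared (adjusted p = 0.0623 and 0.0766), and that of Ets1 with no filter (adjusted p = 0.0699). Under quantile normalization, called genes were higher in ECs than in β cells in 55.4% of cases at No Dox and 57.5% at 1wk WD, in place of 43.8% and 37.0%, and higher in MΦs than in β cells in 56.1% at 1wk WD in place of 41.5%. The median of all genes at 1wk WD moved from -0.12 to 0.30 between ECs and β cells, and all 10 factors stayed called there.

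**Figure D2:**
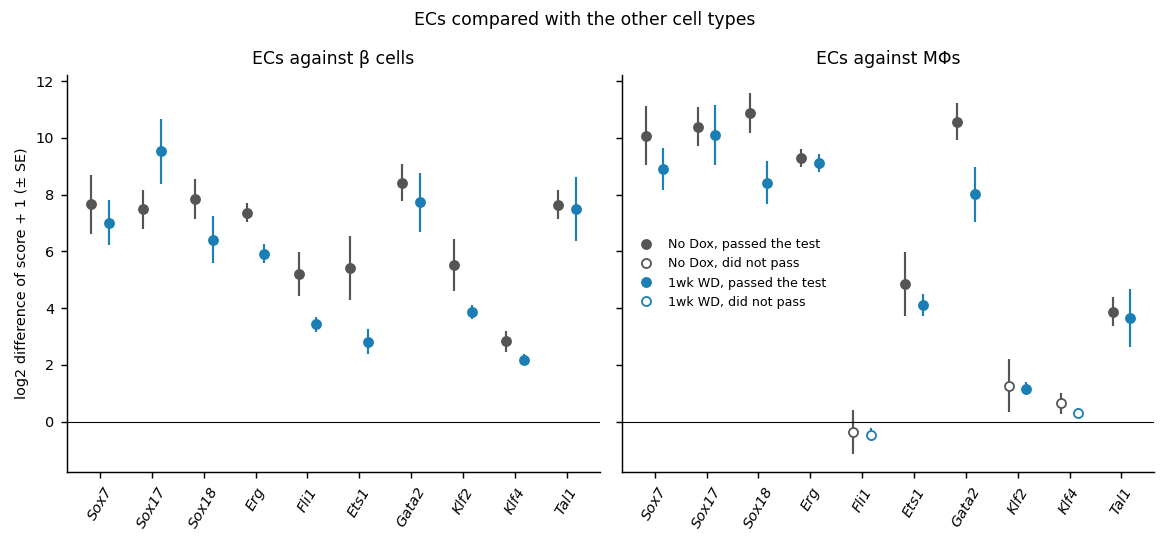
Difference in log2(score + 1) between ECs and β cells (left) and between ECs and MΦs (right) for each factor, with SE from limma, at No Dox (grey) and 1wk WD (blue); filled points passed the test. All 10 factors lie above 0 against β cells, and Fli1 and Klf4 do not pass against MΦs at either time.

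Within ECs, none of the 10 factors was called between 1wk WD and No Dox, where 1.76% of 14167 genes were called. A count on the unadjusted p (under 0.05, again 2-fold) was also 0 of 10, against 4.79% of genes. No factor separated the 5 samples at 1wk WD from the 4 at No Dox, as 10.7% of genes did. These shares are too small for 0 of 10 to set the factors apart. The median difference of the 10 was -0.10 on the log2 scale, beside 0.00 for all genes. The SEs of these differences ran from 0.11 to 0.21, so the EC comparison was far tighter than those with β cells.

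Erg scored 24715, 21463, 46377, 44882 and 30248 in 1wk WD ECs, against 20825 to 22530 at No Dox. Samples 3 and 4 were about 2-fold above the No Dox samples, and sample 2 lay within their range. The log2 difference was 0.56 ± 0.21 (adjusted p = 0.144), and without samples 3 and 4, its 2 highest, left out after seeing the values, it was 0.22 ± 0.11. Sox17 scored 6709, 6834, 11538, 12314 and 10255 at 1wk WD against 6250 to 7468 at No Dox. Its samples 3, 4 and 5 lay above all No Dox samples, with a log2 difference of 0.42 ± 0.18 (adjusted p = 0.202) that came to 0.17 ± 0.14 without samples 3 and 4. Gata2 scored 3650, 4523, 3519, 2826 and 4441 at 1wk WD against 4513 to 6211 at No Dox. Its lower values at 1wk WD overlapped with No Dox in 1 sample, with the smallest adjusted p of the 10 (-0.49 ± 0.15, adjusted p = 0.0818).

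Ets1 scored 21308, 16998, 11415, 20272 and 16503 at 1wk WD against 20915 to 24183 at No Dox, a difference of -0.39 ± 0.16 (adjusted p = 0.177). Sox18 scored 5708, 6949, 4012, 5153 and 9129 against 7024 to 9777 (-0.41 ± 0.20, adjusted p = 0.249). For both, 4 of the 5 samples at 1wk WD lay below every No Dox sample and 1 lay within their range, and sample 3 was the lowest. Sox7, Fli1, Klf2, Klf4 and Tal1 differed by -0.23 to 0.03 on the log2 scale, with SEs of 0.11 to 0.16. Summed proliferation gene scores did not set these samples apart, at 1829 to 5802 at 1wk WD and 3081 to 6182 at No Dox, but other marker lists did. Pericyte and stromal markers summed to 16606 to 70062 at 1wk WD and 5629 to 12539 at No Dox, with 4 of 9 called higher. Acinar markers summed to 659 to 57702 against 59313 to 1596342, with 7 of 7 called lower, and the endothelial markers themselves to 334625 to 381937 against 415340 to 449739, with none of 9 called. The part of these lists in the values of the factors was not tested.

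**Figure D3:**
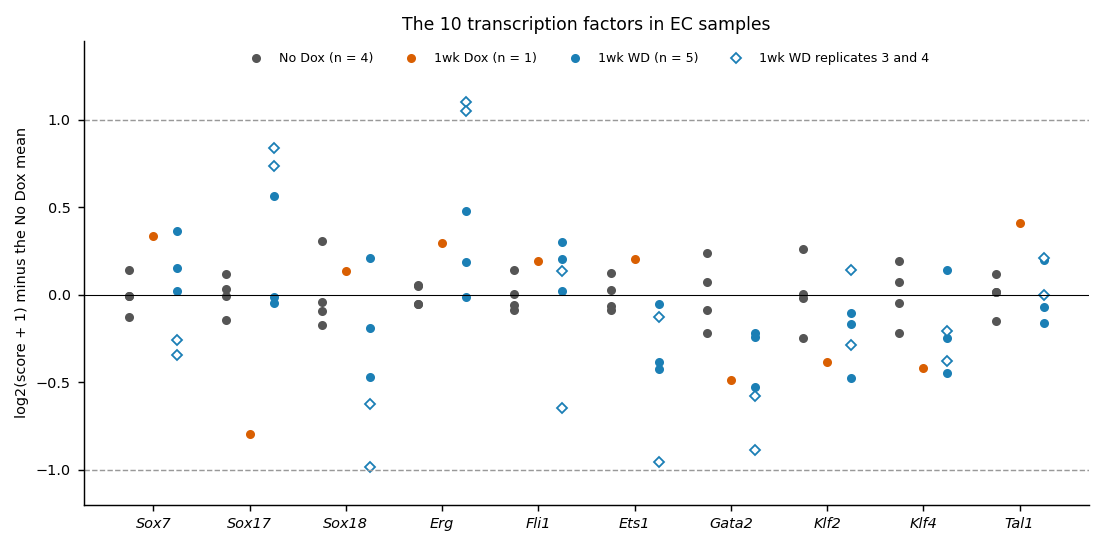
Score of each factor in every EC sample as log2(score + 1) minus the No Dox mean; dashed lines mark a 2-fold difference. Open diamonds are 1wk WD samples 3 and 4, which reach the upper line for Erg, and the single 1wk Dox sample stays inside both lines for all 10 factors.

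The single 1wk Dox EC sample was compared without a test, since 1 sample has no spread of its own. None of the 10 factors was 2-fold or more from the No Dox mean in it, and 10.7% of 14047 genes were. With 10 genes, a share of that size is too small for 0 to set the factors apart. Of the 10, 5 lay above the No Dox range and 4 below it, beside 62.1% of genes outside it. Tal1 (2626 against 1784 to 2146 at No Dox), Sox7 (9614), Erg (26598), Ets1 (25493) and Fli1 (10640) lay above. Sox17 was the farthest from its No Dox values, at 3990 against 6250 to 7468, a log2 difference of -0.79, and Gata2, Klf2 and Klf4 lay 0.39 to 0.49 below the mean on the same scale. Sox18 lay inside the range. In the same sample all 10 proliferation genes listed were 2-fold or more above the No Dox mean, with a median log2 difference of 2.70. Of 11 immediate early genes, 7 lay below the No Dox range (median -0.64), and the acinar markers summed to 203 against 59313 or more at No Dox. The part of these lists in the values was not tested.

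In β cells none of the 10 factors was called at any time. Of all 16346 genes, 0.0122% were called between 1wk Dox and No Dox (2 genes), and 0% in the comparisons of 1wk WD with either earlier time. Counted on the unadjusted limma p instead, the factors still gave 0 of 10 in each, against 4.04% of genes for 1wk Dox, 4.45% for 1wk WD against No Dox and 2.88% for the remaining pair. The SEs were 0.35 to 1.90 on the log2 scale for 1wk Dox against No Dox. For that comparison the log2 differences of 9 of the 10 were above 0, from -0.04 for Sox17 to 2.56 for Ets1, with a median of 1.58 beside 0.03 for all genes. Sox17 was above 0 in 7 alternatives. Without 1wk Dox samples 1, 2 and 3, 6 of the 9 were below 0, from -0.21 (Klf4) to -2.69 (Sox7), a direction that the choice of samples sets, since these hold the highest scores of most of the 6. The differences of 1wk WD ran from -1.64 (Sox17) to 2.19 (Ets1) against No Dox, with a median of 0.84, and from -2.13 (Gata2) to 0.69 (Fli1) against 1wk Dox, with a median of -0.48. These comparisons share samples.

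Sox7, Sox17, Sox18, Erg, Gata2 and Tal1 were high in the same β cell samples. Erg scored 69 to 238 at No Dox, lay above that range in 4 of the 5 samples of 1wk Dox (4105, 1304, 1937 and 321, with 7 in sample 5), and stood at 438, 428 and 781 in the WD samples. Sox7 scored 1599, 397, 719, 16 and 1 in the 1wk Dox samples, then 15, 38 and 323 after withdrawal. Samples 1, 2 and 3 of 1wk Dox and sample 3 of 1wk WD were the highest for both genes, while for Sox7 sample 4 of 1wk Dox lay inside the No Dox range (3 to 105) and sample 5 below it. Tal1 had the same split, with 293, 106, 82, 1 and 1 under Dox and 2, 1 and 233 after withdrawal. Over all 12 β cell samples Sox17 scored 1 to 458, Sox18 1 to 831 and Gata2 1 to 416, each highest in 1wk Dox sample 1.

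Endothelial markers followed that split. As a share of the mean score in No Dox ECs, the median of the 9 markers was 11%, 3.64% and 4.93% in 1wk Dox samples 1, 2 and 3, and 4.32% in 1wk WD sample 3. It was 0.241% to 1.03% in the other 8 β cell samples. In 1wk Dox sample 1, Sox7 stood at 21.0%, Erg at 18.9%, Tal1 at 14.8%, Sox18 at 10.4%, Gata2 at 7.85% and Sox17 at 6.61% of the EC mean, with Pecam1, the CD31 gene used in the sort, at 10.4%. The part of the endothelial markers in these values was not tested.

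Fli1, Ets1 and Klf2 split the β cell samples in another way. Ets1 scored 76, 86, 2396 and 4674 at No Dox, 5906, 2275, 3516, 7230 and 831 under Dox, and 5375, 2818 and 905 after withdrawal. Fli1 scored 84, 58, 714 and 1142 at No Dox and 111 to 1475 later, and Klf2 48, 26, 353 and 1150 at No Dox and 253 to 907 later. No Dox samples 1 and 2 were the lowest of all 12 β cell samples for all 3 genes, as they were for pericyte and stromal markers. A fit that kept only these 2 No Dox samples, chosen after seeing the data, called Ets1, Klf2 and Fli1 higher at 1wk Dox (7.36% of genes were called), and the same 3 with Klf4 at 1wk WD (8.74% of genes). Since the samples kept are the lowest for all 4 genes, these calls follow from the choice and describe it only. In the 2 samples kept, pericyte and stromal markers summed to 922 and 1056 against 97324 to 468843 at 1wk Dox, and their part in the result was not tested. Klf4 was the steadiest factor in β cells, at 1158 to 4856 in all 12 samples.

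**Figure D4:**
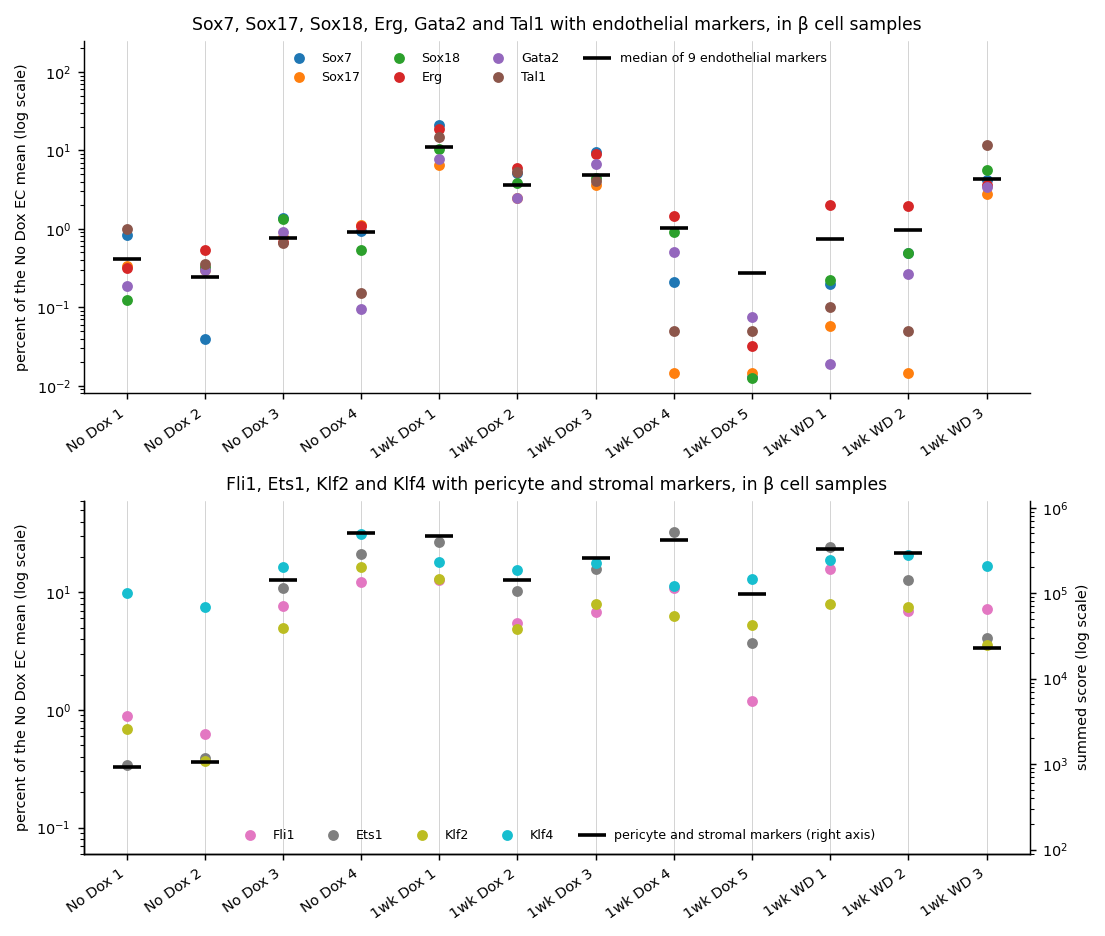
Factors in each β cell sample as a percent of their mean score in No Dox ECs (log scale). In the upper panel, black bars give the median of 9 endothelial markers on the same scale; in the lower panel, black bars give the summed score of pericyte and stromal markers (right axis, log scale). The upper genes stand out in 1wk Dox samples 1 to 3 and 1wk WD sample 3, and the lower panel sets No Dox samples 1 and 2 apart.

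In MΦs, Erg was the only factor called over time. It scored 219 and 153 at 1wk Dox against 33, 43, 31 and 29 at No Dox, and 50, 65, 34 and 92 at 1wk WD. Both 1wk Dox samples were above all other MΦ samples, and the share of all genes that set these 2 samples apart was not counted. The 1wk Dox samples stood at 1.01% and 0.706% of the EC level. Erg was higher at 1wk Dox than at No Dox by 2.41 ± 0.54 on the log2 scale (adjusted p = 0.0281). This was 1 of 9 factors tested, since Sox17 scored too low to enter, and 2.26% of 15014 genes were called. The call was lost without either 1wk Dox sample, at 2.67 (adjusted p = 0.149) without sample 5 and 2.15 without sample 4, or without No Dox sample 1 (adjusted p = 0.0506). Leaving out a 1wk Dox sample leaves 1 in that group, which is then assumed to vary like the other groups. The call was also lost in a fit of only the groups compared (adjusted p = 0.1) and with no filter on low scores (adjusted p = 0.0521).

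Sox18 and Gata2 were low in MΦs throughout. Sox18 had 85 and 21 at 1wk Dox against 1 to 10 at No Dox (3.38 ± 1.15, adjusted p = 0.112), and Gata2 had 24 and 19 against 1 to 6 (2.70 ± 1.10, adjusted p = 0.183). The 1wk Dox samples were above No Dox for both genes, without passing the test. Sox7 had 71 and 28 against 1 to 33 (2.70 ± 1.22, adjusted p = 0.225), while Ets1 and Tal1 differed by -0.26 ± 0.24 and 0.09 ± 0.43. None of Sox18, Gata2 and Sox7 reached the mean score needed for testing at No Dox, so they entered through later groups. The 9 endothelial markers summed to 3519 and 2881 at 1wk Dox, 1289 to 1823 at No Dox and 1726 to 2530 at 1wk WD, and at No Dox 1 marker was at the lowest score in each sample. None of the 8 markers tested was called, but 7 of 8 had a difference above 0, with a median of 1.72 on the log2 scale beside 0.03 for all genes, and 3 had an unadjusted p under 0.05 with a 2-fold change. In the same comparison 3 of 10 proliferation genes and 2 of 5 platelet and megakaryocyte markers were called higher (the latter summed to 8008 and 5045 against 2671 to 3415), and 4 of 7 acinar markers were called lower. The part of these lists in the Erg value was not tested.

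Against No Dox, 0 of 9 factors were called at 1wk WD in MΦs, where 0.626% of genes were, and 2 of 9 had an unadjusted p under 0.05 with a 2-fold change (Sox18 and Gata2; 4.97% of genes). In MΦs, Gata2 and Sox7 reached the mean score needed for testing at 1wk Dox only, and Sox18 at 1wk Dox and 1wk WD only. The filter thus kept these genes for groups in which they were high, so the count of 2 of 9 cannot show a change. Against 1wk Dox, 0 of 9 were called at 1wk WD (0.0866% of genes), and Erg alone had an unadjusted p under 0.05 with a 2-fold change, at -1.68 ± 0.54 (adjusted p = 0.327; 1.82% of genes). Of the others, Sox7, Sox18 and Gata2 were at -1.54 to -0.63 there, Ets1 at 0.62 ± 0.24 and Tal1 at 0.17 ± 0.43. Fli1 was the steadiest member in MΦs, at 10774 to 13743 in all 10 samples. Klf2 and Klf4 scored 2110 to 3893 and 7563 to 13092 there, with differences between times of -0.23 to 0.30 on the log2 scale. At 1wk WD against No Dox, Sox7 differed by 1.15 ± 0.99, Erg by 0.73 ± 0.44, Ets1 by 0.36 ± 0.20 and Tal1 by 0.25 ± 0.35, and none passed.

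The change from No Dox to 1wk WD was compared between ECs and MΦs in 1 fit. Gata2 was called, with a difference between the changes of -2.57 ± 0.62 on the log2 scale (adjusted p = 0.0414), as were 1.4% of 15603 genes. In ECs it went from 4513 to 6211 at No Dox to 2826 to 4523 at 1wk WD. In MΦs it went from 4, 1, 1 and 6 to 4, 18, 20 and 21, all close to the lowest score, and with a pseudocount of 20 the difference was -1.10 ± 0.28 (adjusted p = 0.0411). Both MΦ means lay under the mean score of 20 needed for testing, so Gata2 entered this fit through ECs alone. The call was lost in 13 of the 17 fits that left out 1 sample, with no filter (adjusted p = 0.0875), with no trend (0.0631) and without 1wk WD EC samples 3 and 4 (0.127). The other 9 factors did not pass, and Sox18 came closest (-2.46 ± 0.74, adjusted p = 0.0835; 0.0418 without No Dox MΦ sample 3). Sox7 and Ets1 were at -1.17 ± 0.89 and -0.75 ± 0.26, and Sox17, Erg, Fli1, Klf2, Klf4 and Tal1 at -0.34 to -0.09. Of 9 endothelial markers, 1 had a difference above 0 and none was called, with a median of -0.42 beside 0.01 for all genes. The part of these markers in the Gata2 value was not tested.

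Other endothelial factors and partners were read from lists of known genes. Of 25 further transcription factors known in ECs, 24 were tested at No Dox, of which 17 were higher and 1 lower in ECs than in β cells, and 13 were higher and 3 lower than in MΦs. The Notch targets Hey1 and Hey2 were higher in ECs than in MΦs by 9.24 ± 1.37 and 8.81 ± 1.74, the endothelial repressor Bcl6b by 8.81 ± 0.74, and Epas1, a hypoxia-inducible factor, by 7.74 ± 1.28. Between 1wk WD and No Dox ECs, 3 of 24 were higher and 0 lower, where 1.76% of all genes were called. Nr2f2, which sets venous identity, scored 1477, 1029, 1050, 2263 and 1557 at 1wk WD against 379 to 549 at No Dox, without overlap (1.67 ± 0.22, adjusted p = 0.00335). Heyl, a Notch target also made by pericytes, scored 322 to 1653 against 55 to 227 (2.58 ± 0.53, adjusted p = 0.0215), and Foxc2, a lymphatic factor, 54 to 114 against 10 to 51 (1.88 ± 0.46, adjusted p = 0.043). All 3 were also high in β cell samples with high pericyte and stromal markers. In No Dox β cell sample 4 Nr2f2, Heyl and Foxc2 scored 7504, 12191 and 255, where samples 1 and 2 had 34 to 92, 38 to 45 and 1. Foxc2 lost its call in 7 of 9 fits that left out 1 sample, and Heyl in 2 of 9, while Nr2f2 kept its call in all 9. Pericyte and stromal markers in ECs summed to 16606 to 70062 at 1wk WD and 5629 to 12539 at No Dox. Their part in the values of these 3 genes was not tested.

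Of 8 partners of Tal1 and Gata2, 7 were tested. At No Dox 5 of them were higher in ECs than in β cells, and 2 were higher and 2 lower in ECs than in MΦs. Lmo2, the bridge of the Tal1 and Gata2 complex, was higher in ECs than in β cells by 5.93 ± 1.08 on the log2 scale, but its scores in ECs (1382 to 2156) and MΦs (1770 to 2638) overlapped. Lyl1, a paralog of Tal1, scored 34 to 68 in No Dox ECs and 644 to 2057 in No Dox MΦs (-4.90 ± 0.83), and Runx1, a blood cell factor, 21 to 60 and 14235 to 23229 (-8.84 ± 1.06). The GATA cofactor Zfpm1 and the E protein Tcf3 were higher in ECs by 3.51 ± 0.81 and 1.29 ± 0.18. None of the 7 was called over time in ECs.

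Most known endothelial targets of these factors were higher in ECs at No Dox. All 19 listed were higher than in β cells at No Dox, by a median of 7.47 on the log2 scale, and 18 of 19 were higher than in MΦs, with Vwf the exception (0.23 ± 1.34, adjusted p = 0.917). Several of the 19 are also in the marker list, so the count describes the sort as well. Robo4, a guidance receptor of vessels, was higher in ECs than in MΦs by 11.75 ± 0.51, and Cdh5, VE-cadherin, by 11.21 ± 0.95. Over time in ECs, Vwf, the von Willebrand factor gene, was the 1 target of 19 called, while 6 of the 19 had a difference above 0, the median was -0.21, and the 19 summed to 516175 to 571606 at 1wk WD against 678700 to 722312 at No Dox. Vwf scored 2360, 2725, 3065, 3327 and 4111 at 1wk WD against 744, 2220, 1101 and 1039 at No Dox, without overlap (1.38 ± 0.26, adjusted p = 0.0157). Leaving out 1 sample ended that call in 2 of 9 fits.

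Genes with the pattern most like each factor were ranked by Pearson's r of log2(score + 1) over the 32 samples among 16968 genes, as a description, since the samples share 3 cell types and 1 normalisation. Sox7, Sox18 and Erg had Pcdh17 and Clec14a, a protocadherin and an endothelial lectin, among their 3 nearest genes (r = 0.972 to 0.978). Sox17 was nearest to Ccdc85a, 1700057G04Rik and Sema3g (0.973 to 0.976), and Gata2 to Eltd1, Exoc3l2 and Kdr, the VEGF-A receptor 2 gene (0.978 to 0.983). Tal1 was nearest to S1pr1, Fam43a and Cd38 (0.947 to 0.958). Ets1 was nearest to Itgb3, Eng and Rnf144a (0.964 to 0.970). The factors shared with MΦs had other neighbours, Entpd1, Lrrfip1 and Apobec3 for Fli1 (0.982 to 0.990), Dram1, Swap70 and X99384 for Klf2 (0.970 to 0.984), and Serinc3, Sertad2 and Cd47 for Klf4 (0.958 to 0.963).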

How the data were processed

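Sorted islet cells of 32 samples were profiled by paired-end RNA sequencing of amplified RNA. The authors aligned reads with TopHat2 (2.0) to mm9, normalised counts by TMM in Avadis NGS, and deposited the values as scores in whole numbers, with 1 as the lowest. Read depth cannot be recovered from such scores, so no counting interval is given, and 6 sample columns of the table that match no sample used here were left out. The labels do not say how samples relate beyond pooling of mice, so p-values measure the spread between these samples. One label of a 1wk Dox β cell sample spells the cell type differently. Samples are numbered as in their titles, and the table's own header numbers the 1wk Dox samples and 1wk WD β cell sample 3 differently.

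Differences were fitted on log2(score + 1) with limma 3.58.1 in R 4.3.3 (eBayes with a trend), for each cell type over time and for the 3 cell types within No Dox and within 1wk WD, keeping genes whose mean score reached 20 in 1 or more fitted groups, with Benjamini-Hochberg adjustment. A score is not a count, so no count model was used. The single 1wk Dox EC sample entered no main test. The script was tested on simulated data. Tables were handled with Python 3.11.15, pandas 2.3.3 and numpy 2.4.6, and plots with matplotlib 3.10.9.

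By rule all 10 factors are reported in every comparison, each by name or within a count and range over the 10. Of the lists of other endothelial factors, partners and targets, up to 4 called genes with the largest difference are named, and for likeness the 3 genes with the highest r. The members and lists were chosen with earlier results of these data known. Alternatives were a pseudocount of 20, no filter or a minimum of 200, median-of-ratios or quantile scaling, no trend, only the groups compared, a replicate block, other call rules and leaving out each sample. Leaving out No Dox β cell samples 3 and 4, 1wk Dox β cell samples 1 to 3, or 1wk WD EC samples 3 and 4 was chosen after seeing the data. Member positions are those of the deposited table (mm9), and promoters are RefSeq (GRCm38.p6).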

Additional observations from a re-analysis of the deposited data

Results flagged for a closer look

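In No Dox β cells, Sox7 in sample 2 (score 3, against 64 to 105 in the other 3) lay far below the rest, with a gap of 0.85 of the group's whole range on the log2 scale. In 1wk WD MΦs, Gata2 in sample 1 (score 4, against 18 to 21) had a gap of 0.9 of the range. Of 60 groups examined in this way 2 were set apart, where chance gives about 1 in 20. The change of Gata2 from No Dox to 1wk WD differed between ECs and MΦs by -2.57 on the log2 scale (limma interaction, adjusted p = 0.0414), with MΦ scores of 21 or less. The call was lost in 13 of 17 fits that left out 1 sample, and with no filter, no trend or the replicate block.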

How the results depend on the processing

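Of 137 member results, 51 were called. Over 1159 alternative values of these, 1125 kept direction and call, 34 lost the call and 0 reversed. Of the 86 results not called, 13 were called in 1 or more alternatives other than a changed call rule, and 38 changed sign in 1 or more. Beside the 7 in β cells without No Dox samples 3 and 4, these 13 were Klf2 between No Dox ECs and MΦs, Sox7 and Ets1 between No Dox MΦs and β cells, Sox7 and Sox18 between 1wk WD MΦs and β cells, and the Sox18 interaction. The 34 belonged to 5 results, namely Erg in MΦs under Dox, the Gata2 interaction, Gata2 between No Dox MΦs and β cells (-0.68 with a pseudocount of 20 and -1.45 after quantile scaling), and Tal1 and Ets1 between 1wk WD MΦs and β cells. The cause was not tested. In MΦs between 1wk Dox and No Dox, the count of 1 member called became 4 on the unadjusted p (983 of 15014 genes), and 0 with no filter, with a minimum score of 200 (which Erg does not reach), with the replicate block or with only the groups compared, and 0 to 1 when 1 sample was left out. Between 1wk WD and the earlier times in MΦs, 0 became 2 (No Dox) and 1 (1wk Dox) on the unadjusted p. Of the members counted on the unadjusted p in MΦs, Sox7, Sox18 and Gata2 did not reach the mean score needed for testing at No Dox. For the interaction, 1 became 2 on the unadjusted p (1411 of 15603 genes), and 0 with no filter, no trend, the replicate block or without 1wk WD EC samples 3 and 4, and 0 to 1 when 1 sample was left out. Without No Dox β cell samples 3 and 4, members called in β cells went from 0 to 3 (1wk Dox) and 4 (1wk WD), a choice that keeps the lowest samples of those genes.

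Same-numbered samples were not paired by the labels, and the correlation of their deviations ran from -0.48 to 0.339 in β cells, -0.117 to 0.11 in MΦs and -0.213 to 0.195 in ECs, -0.194 to 0.384 between cell types at No Dox and -0.074 to 0.142 at 1wk WD. Of the checks of whether a sample correlated best with its own number, 13 of 20 did between cell types at 1wk WD, 4 of 24 at No Dox, and 4 of 20, 0 of 8 and 3 of 8 over time in β cells, MΦs and ECs. The numbers follow the titles, from which the table's own header differs for 1wk Dox samples and 1wk WD β cell sample 3. The replicate block also moved the count for 1wk WD MΦs against β cells from 6 to 7, and changed no other member count. With it the adjusted p was 0.463 for Erg in MΦs under Dox and 0.0633 for the Gata2 interaction.

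Over all genes, the 340 calls in MΦs between 1wk Dox and No Dox became 118 with no filter, 52 with no trend, 3 with the replicate block and 38 with only the groups compared. The 94 calls between 1wk WD and No Dox became 11, 11, 43 and 49 in that order, and the 13 between 1wk WD and 1wk Dox became 8 with a pseudocount of 20, 0 with no trend or the replicate block and 79 with only the groups compared. Leaving out 1 sample gave 0 to 487, 23 to 123 and 0 to 24 calls in these 3 comparisons, 75 to 311 in ECs and 92 to 362 for the interaction. The 250 calls in ECs became 27 with no filter and 76 with no trend, and the 219 of the interaction became 100 with no filter and 80 without 1wk WD EC samples 3 and 4. The 2 calls in β cells under Dox became 0 to 4 under the other scalings, filters and fits, 1 to 26 when 1 sample was left out, and 1199 without No Dox samples 3 and 4. The low β cell counts rest on samples that vary widely, and low scores of SoxF genes and Gata2 outside ECs leave their fold changes dependent on the pseudocount.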
